A study of Sus scrofa with 2 samples.

Results

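Among the nuclei of the pig pancreas that carried endothelial transcripts, those that also carried SLCO2A1 or TLL1 were examined. A nucleus was counted as a member when the UMIs (unique molecular identifiers, 1 per captured RNA molecule) of FLT1, PTPRB, FGD5, EGFL7, EMCN, TEK, ERG and KDR summed to at least 3 and to at least 0.2% of its UMIs, and when SLCO2A1 and TLL1 together had at least 2 UMIs. The members were thus chosen by the measured UMIs of these 10 genes. Only barcodes with 270 to 3700 genes and fewer than 13000 UMIs were used. This gave 399 members among 28583 barcodes, with 169 of 13619 in the WT library and 230 of 14964 in the PIGinH11 library. The 8 endothelial genes alone, called the endothelial gate here, were met by 290 WT and 465 PIGinH11 nuclei. Of these, 77 and 144 nuclei had no UMI of SLCO2A1 or TLL1 and served as comparison nuclei, and 44 and 91 nuclei had exactly 1 such UMI.

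Each library came from 1 piece of pancreas, 1 from a WT pig and 1 from a PIGinH11 pig. The PIGinH11 pig carried GIPRdn, hIAPP and PNPLA3 I148M at the H11 locus under promoters of beta cells or liver, so that endothelial cells are not where these promoters are meant to act. Both were Bama pigs aged 18 months, fed control diet until 6 months of age and then HFHSD, made of 37% sucrose, 53% control diet and 10% lard, for 12 months. With 1 animal in each group, the spread between animals was not measured, no test between nuclei or pigs was made, and the intervals given are exact 95% intervals that cover counting error only.

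Endothelial cells line the blood vessels, and their expression differs along the vascular tree. SLCO2A1 is a membrane transporter that takes up prostaglandins for breakdown, and TLL1 is a tolloid-like metalloprotease that cleaves procollagens and the BMP antagonist chordin. Venules are known for ACKR1 and P-selectin (SELP), which handle chemokines and leukocytes, while capillaries of many tissues carry GPIHBP1, CD36 and other genes of lipid uptake. In the Sscrofa11.1 annotation of RefSeq, SLCO2A1 lies on chromosome 13 from 75108540 to 75189660 and TLL1 on chromosome 8 from 42855883 to 43094215.

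The WT members were deeper than the PIGinH11 members, with a median of 4451 against 2793.5 UMIs and 2031 against 1552.5 genes per nucleus. Comparison nuclei were shallower in both libraries, with medians of 2969 and 1377 UMIs, so that a nucleus with few UMIs was also less likely to reach the 2 UMIs of the rule. Members made up 58.3% (52.4 to 64) of the WT gate and 49.5% (44.8 to 54.1) of the PIGinH11 gate. When each nucleus was thinned to 1000 UMIs before the rule was applied, these shares were 30.8% and 34.6%, and the order of the libraries turned. The libraries shared 60 barcodes, and 0 of these were members in either library. Scrublet scored 12 WT members (7.1%) and 10 PIGinH11 members (4.35%) as doublets, and these were kept.

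SLCO2A1 and TLL1 chose the members and are given as a description. SLCO2A1 had 1203 UMIs in WT members and 1497 in PIGinH11 members, which is 1525 and 1942 CPM (counts per 1000000, with the UMIs of a group of nuclei set against all UMIs of that group), compared with 2.65 and 11.7 CPM in the barcodes outside the gate. It was the gene of the pair that most members carried. No SLCO2A1 UMI was found in 6 WT and 16 PIGinH11 members, 2 to 4 in 75 and 104, and 10 or more in 37 and 38. TLL1 had 854 and 974 UMIs (1083 and 1264 CPM), against 4.77 and 13.4 CPM outside the gate. No TLL1 UMI was found in 116 WT and 105 PIGinH11 members, and 27 and 33 had 10 or more. The 10 nuclei richest in TLL1 held 56.2% of its WT UMIs and 34% of its PIGinH11 UMIs, while the richest 10 for SLCO2A1 held 24.9% and 29.3%.

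**Figure D1:**
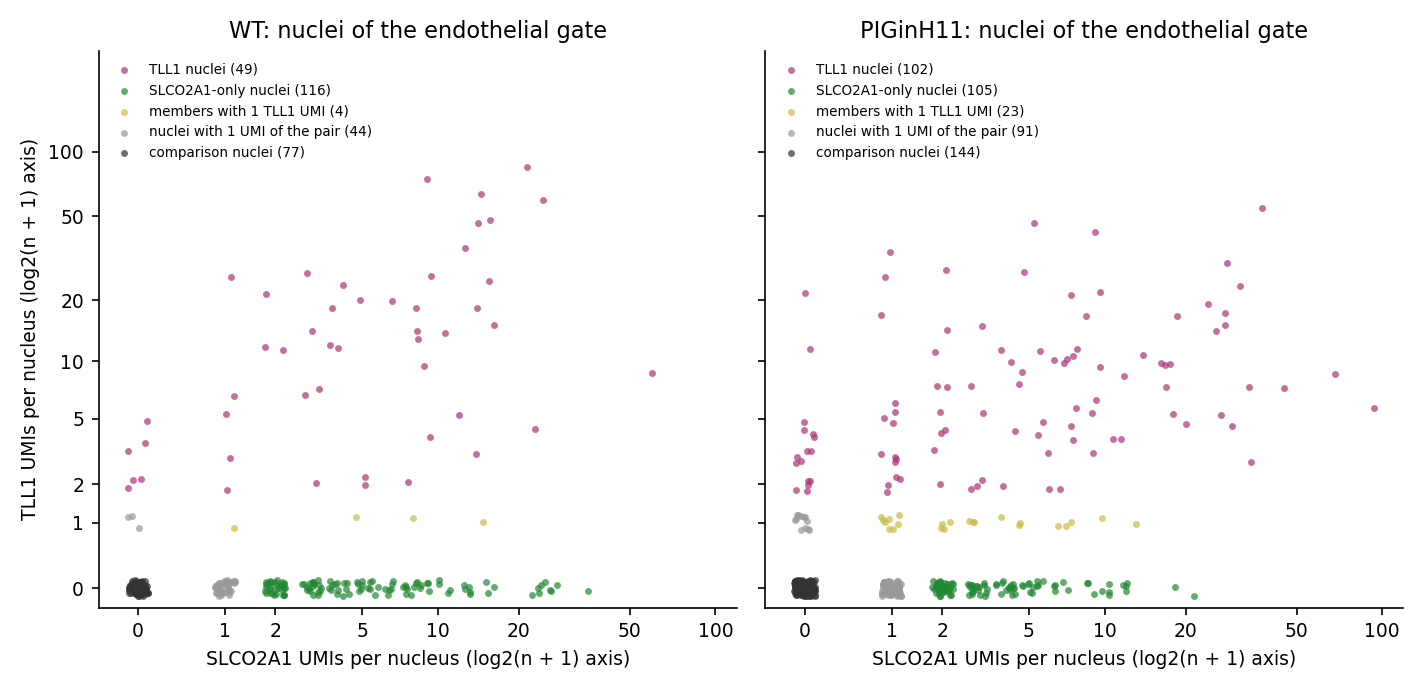
SLCO2A1 UMIs (horizontal, log2(n + 1) axis) and TLL1 UMIs (vertical, same scale) in each nucleus of the endothelial gate, with WT on the left and PIGinH11 on the right, 1 point per nucleus, slightly jittered and coloured by group. The 116 WT and 105 PIGinH11 members without TLL1 lie along the bottom, and TLL1 reaches 78 UMIs in a WT nucleus and 56 in a PIGinH11 nucleus.

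Near the limits of the rule, 35 WT and 54 PIGinH11 members had exactly 2 UMIs of the pair, compared with 44 and 91 gate nuclei with 1 UMI just outside. Exactly 3 UMIs of the 8 endothelial genes were found in 0 WT and 6 PIGinH11 members. Just outside, 0 WT and 11 PIGinH11 barcodes with at least 2 UMIs of the pair had 2 endothelial UMIs, and 5 and 14 had at least 3 that made up less than 0.2%.

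The gate used neither SLCO2A1 nor TLL1, so their occurrence together could be described across all its nuclei. TLL1 was detected in 23% (17.4 to 29.4) of the WT gate nuclei with SLCO2A1 and in 10.5% (4.9 to 18.9) of those without. In PIGinH11, the shares were 37.2% (31.7 to 43) of 293 nuclei and 16.3% of 172 nuclei. After thinning to 1000 UMIs, which left out 8 WT and 81 PIGinH11 nuclei, they were 23.8% with and 6.58% without SLCO2A1 in WT, and 38.3% and 13.4% in PIGinH11. TLL1 was thus found more often beside SLCO2A1 in both libraries, while most members carried SLCO2A1 without TLL1 in the WT library.

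Endothelial markers that the rule did not use were high in members. Of 25 such markers, 24 were found in the matrices, and their summed level was 9222 CPM (9011 to 9436) in WT members and 9280 CPM (9067 to 9498) in PIGinH11 members, against 134 and 271 CPM outside the gate. PECAM1, a junction protein of all endothelium, reached 1144 and 1358 CPM and VWF, the von Willebrand factor of clotting, 671 and 1083 CPM. CDH5, the endothelial cadherin, was at 136 and 108 CPM, and RASIP1 was listed at 0. Of 22 measured in members against comparison nuclei, 0 were at least 2-fold higher or lower in both libraries, where 1.57% and 0.378% of all 5031 genes with at least 30 UMIs were, so that this count is near the share over all genes. In PIGinH11 alone 2 were higher and 1 lower, and the median log2 ratio was 0.06 in WT and 0.10 in PIGinH11.

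The 8 genes of the gate are given without a test, since they chose the nuclei. FLT1, a VEGF receptor, was at 1347 CPM in WT members and 1265 CPM in WT comparison nuclei, and at 1318 and 1203 CPM in PIGinH11. EMCN, a sialomucin of the vessel surface, was at 779 and 726 CPM in WT, and at 586 and 545 CPM in PIGinH11. The angiopoietin receptor TEK was at 1052 and 766 CPM in WT and at 711 and 561 CPM in PIGinH11. KDR, the main VEGF receptor, was at 312 and 343 CPM in WT and at 219 and 224 CPM in PIGinH11.

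Members differed from comparison nuclei in a small group of genes that was shared by both pigs. Compared with the comparison nuclei, members had more ACKR1, SELP, IL1R1, IL33 and ADGRG6, and less GPIHBP1, PPARG, BTNL9 and PTGER2, in each library. Over the 5031 genes with at least 30 UMIs in members and comparison nuclei of each library, 287 (5.7%) were at least 2-fold higher in WT members, 300 (5.96%) in PIGinH11 members and 79 (1.57%) in both. At least 2-fold lower were 134 (2.66%), 133 (2.64%) and 19 (0.378%). The median log2 ratio of these genes was 0.02 in WT and 0.01 in PIGinH11.

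ACKR1, an atypical chemokine receptor of venules, had 54 UMIs in 27 WT members and 91 UMIs in 33 PIGinH11 members, and no UMI in any comparison nucleus of either library. Its ratio was therefore a lower bound, taken at 3 counts in place of 0, of at least 2.52 on the log2 scale in WT and at least 3.35 in PIGinH11. SELP, the selectin on which leukocytes roll, was at 113 CPM in WT members against 0 in comparison nuclei and at 51.9 against 7.74 CPM in PIGinH11 (log2 at least 3.24, and 2.75). IL33, a cytokine kept in the nucleus and released on damage, was at 473 against 75.8 CPM in WT and at 720 against 104 CPM in PIGinH11. IL1R1, the receptor of interleukin-1, was at 545 against 112 CPM in WT and at 621 against 34.8 CPM in PIGinH11 (log2 2.29, 1.73 to 2.89, and 4.16, 3.22 to 5.30). The PIGinH11 ratio of IL1R1 was 2.73 against comparison nuclei with 0 or 1 UMI of the pair and 3.21 as a mean over nuclei. Among nuclei of 1000 to 5000 UMIs, the bounds for ACKR1 were 1.47 and 2.05, that for SELP in WT was 2.38, and IL33 in WT was at 1.98 in place of 2.64.

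The transcription factors LHX6 and MEOX1 were also among the 12 named genes with the highest ratios. MEOX1 was at 48.2 against 7.98 CPM in WT and at 97.3 against 7.74 CPM in PIGinH11, with 2 UMIs in the comparison nuclei of each library. LHX6 was at 78.6 against 12 CPM in WT and at 104 against 3.87 CPM in PIGinH11. ADGRG6, an adhesion G protein-coupled receptor, was at 188 against 35.9 CPM in WT and at 263 against 7.74 CPM in PIGinH11 (log2 2.39 and 5.09). DOCK11, an activator of the GTPase CDC42, was at 136 against 0 CPM in WT and at 236 against 7.74 CPM in PIGinH11. FAR2 (fatty alcohol synthesis), the adhesion molecule CNTN3, the growth factor FGF2 and CHN1 (a Rac regulator) made up the rest, with log2 ratios from 2.17 for CHN1 to 2.74 for FAR2 in WT and from 2.48 for CNTN3 to 3.88 for FAR2 in PIGinH11. Against comparison nuclei with 0 or 1 UMI of the pair, FGF2 in PIGinH11 was at 1.37 in place of 2.72. The counts behind some of these are small, and FAR2 lay in 12 WT members with up to 13 UMIs in a nucleus.

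Among the named genes, ranked by the library nearer to 0, the lowest ratio was that of a prostaglandin receptor. PTGER2, the EP2 receptor of prostaglandin E2, was at 31.7 CPM in WT members against 219 CPM in comparison nuclei, and at 18.2 against 89 CPM in PIGinH11. Its log2 ratios were −2.79 (−3.54 to −2.08) and −2.29 (−3.36 to −1.27). The UMIs of the comparison nuclei lay in 15 WT and 10 PIGinH11 nuclei.

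Of 10 measured genes of the list of lipid uptake and handling, 4 (CD36, FABP4, GPIHBP1 and PPARG) were at least 2-fold lower in both libraries. At least 2-fold higher in both was 1 (MEOX1). CD36, FABP4 and GPIHBP1 are also on the list of capillary markers given below, so the 2 lists are not separate results. Among all 5031 genes, 0.378% were at least 2-fold lower and 1.57% higher in both. The list had medians of −0.67 and −0.32, with 5 of its genes below 0 in both and 2 above 0 in both. GPIHBP1, which holds lipoprotein lipase at the capillary wall, was at 82.4 against 323 CPM in WT and at 106 against 375 CPM in PIGinH11, with log2 ratios of −1.97 (−2.47 to −1.48) and −1.82 (−2.26 to −1.38). PPARG, a nuclear receptor for fatty acids, was at 207 against 587 CPM and at 218 against 673 CPM. BTNL9, a butyrophilin-like surface protein, was at 96.4 against 235 CPM and at 106 against 267 CPM. Among nuclei of 1000 to 5000 UMIs, the log2 ratio in WT was −0.97 in place of −1.50 for PPARG and −0.23 in place of −1.29 for BTNL9, so that neither was 2-fold lower there. ABLIM3, PCED1B, MAP2, SMYD2, ROBO2, BCAR3, SSUH2 and ADGRF4 completed the 12, with log2 ratios between −1.10 and −2.75 in WT and between −1.12 and −2.16 in PIGinH11. Of these 8 genes, 6 (PCED1B, SMYD2, ROBO2, BCAR3, SSUH2 and ADGRF4) were within 2-fold in at least 1 library under an alternative setting, and SSUH2 in PIGinH11 was at −0.26 in place of −1.51 as a mean over nuclei. MAP2, SMYD2 and ROBO2 had more CPM outside the gate than in members of both libraries. ROBO2, a Slit receptor, had 30 UMIs in 5 WT comparison nuclei, and its log2 ratio there was −2.75 with all nuclei, −1.61 without scored doublets and −0.41 without nuclei that carried markers of another cell type.

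**Figure D2:**
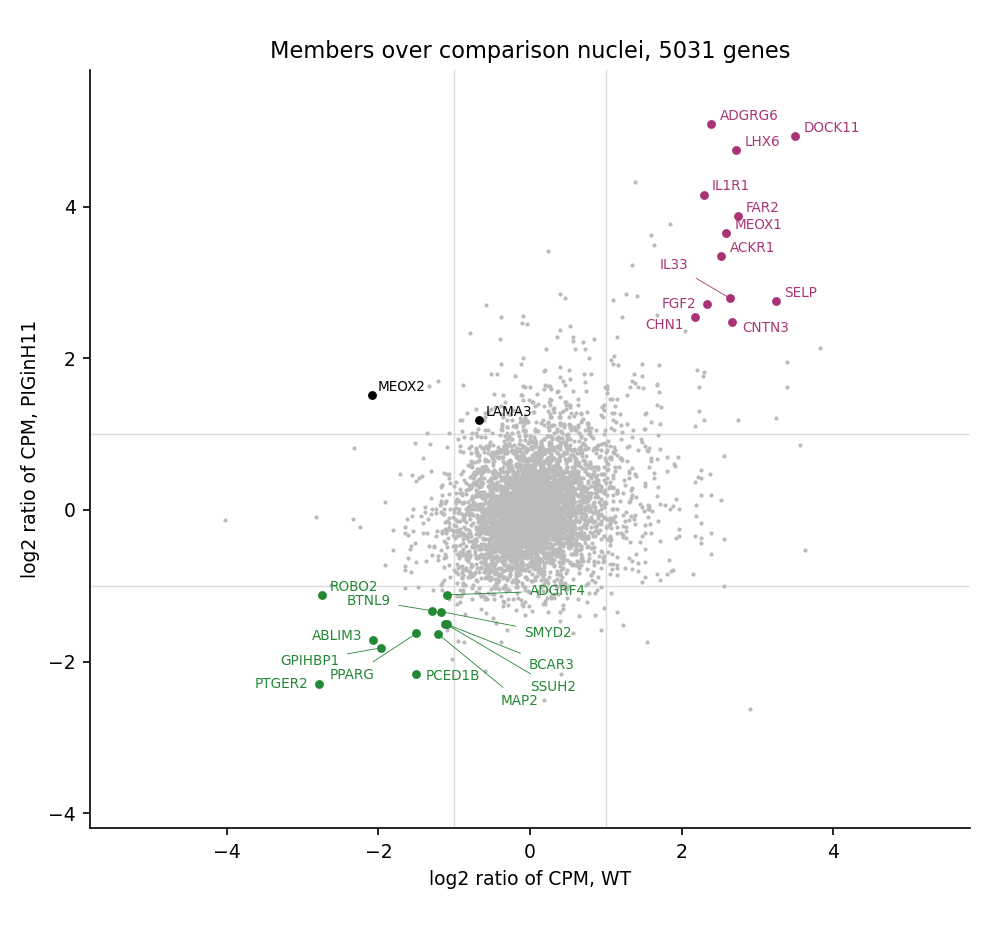
Log2 ratio of CPM in members over comparison nuclei for 5031 genes, in WT (horizontal) and PIGinH11 (vertical), 1 point per gene, with the 12 highest named genes in purple, the 12 lowest in green and grey lines at a 2-fold difference. Genes without UMIs in one group are drawn at their bound, and MEOX2 and LAMA3, in black, lie on opposite sides of 0 in the 2 libraries.

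Of the lists of vessel-segment markers, the venous one had a median above 0 and the capillary one a median below 0 in both libraries, though 2 of 7 venous and 3 of 9 capillary genes had opposite signs in the libraries. Over all genes, 1.57% were at least 2-fold higher and 0.378% lower in both. Of 13 venous markers, 7 were measured and 5 (ACKR1, NR2F2, SELP, ADGRG6 and IL1R1) were at least 2-fold higher in members of both libraries, with a list median of 2.29 in WT and 2.75 in PIGinH11, genes without UMIs taken at their bound. NR2F2, the transcription factor that specifies veins, was at 65.9 against 16 CPM in WT and at 59.7 against 11.6 CPM in PIGinH11. Summed over the list, members had 1248 CPM (1171 to 1328) and 1352 CPM (1271 to 1437), and comparison nuclei 411 and 317 CPM. Of 15 capillary markers, 9 were measured and 4 (CD36, GPIHBP1, FABP4 and BTNL9) were at least 2-fold lower in both, with medians of −1.16 and −0.99 and summed levels of 2273 and 2237 CPM in members against 4326 and 4274 CPM. Of these 4, BTNL9 was not 2-fold lower in WT (−0.23) among nuclei of 1000 to 5000 UMIs. CD36, a fatty acid transporter, was at 408 against 994 CPM in WT and at 588 against 1226 CPM in PIGinH11. With all UMIs, the share of nuclei with a CD36 UMI did not follow this order. It was 47.9% of WT members against 39% of comparison nuclei and 42.6% against 39.6% in PIGinH11. Thinned to 1000 UMIs, these shares were 30.5% against 25% in WT and 31% against 43.1% in PIGinH11. At 500 UMIs they were 15.4% against 23.4% in WT and 20% against 24.3% in PIGinH11, which is the order of the CPM in both libraries. Among 12 measured arterial markers, 0 passed 2-fold in both libraries in either direction, which is near the share over all genes, 2 were lower in PIGinH11 alone, and the median was −0.35 in each. These lists and the members were chosen with earlier results of these data known.

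Members were not uniform, and ACKR1, IL1R1 and ADGRG6 lay mainly in the nuclei with TLL1. To describe this, 49 WT (29%, 22.3 to 36.5) and 102 PIGinH11 members (44.3%, 37.8 to 51) with at least 2 TLL1 UMIs, called TLL1 nuclei, were set against 116 and 105 members without a TLL1 UMI, called SLCO2A1-only nuclei. This split was chosen after the values were seen. Both groups had like depth, with medians of 4451 and 4463 UMIs in WT and 3034 and 2907 in PIGinH11. Of 4087 genes measured, 318 (7.78%) were at least 2-fold higher in WT TLL1 nuclei, 274 (6.7%) in PIGinH11 TLL1 nuclei and 156 (3.82%) in both, while 311 (7.61%), 302 (7.39%) and 150 (3.67%) were lower. SLCO2A1-only nuclei against comparison nuclei gave 13 genes (0.341%) higher and 11 (0.289%) lower in both libraries, of 3810 measured, with 3.15% in WT and 2.47% in PIGinH11 higher and 2.62% and 2.18% lower. TLL1 nuclei against comparison nuclei gave 134 (4.11%) and 116 (3.56%), of 3261, with 8.83% and 8.25% higher and 7.73% and 7.05% lower in each library. The last 2 comparisons share the comparison nuclei.

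ACKR1 was close to absent from SLCO2A1-only nuclei. It was at 212 CPM in WT TLL1 nuclei and 234 CPM in PIGinH11 TLL1 nuclei, against 3.74 and 5.61 CPM in SLCO2A1-only nuclei, with log2 ratios of 5.83 (3.90 to 8.91) and 5.38 (3.49 to 8.45). An ACKR1 UMI was detected in 23 of 49 WT TLL1 nuclei (46.9%, 32.5 to 61.7) and 31 of 102 PIGinH11 TLL1 nuclei (30.4%, 21.7 to 40.3). It was found in 1.72% and 0.952% of SLCO2A1-only nuclei, in 0 of 77 and 0 of 144 comparison nuclei, whose intervals reach 4.68% and 2.53%, and in 0.14% and 0.242% of barcodes outside the gate, whose median depths were 3079 and 1161 UMIs. Thinned to 1000 UMIs, ACKR1 was detected in 25% of WT and 20.8% of PIGinH11 TLL1 nuclei, and in 0 of 72 and 0 of 102 comparison nuclei.

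Other genes were also higher in TLL1 nuclei than in SLCO2A1-only nuclei, and whether they lay in the same nuclei as ACKR1 was not tested. IL33 was at 908 CPM against 260 CPM in SLCO2A1-only nuclei in WT and at 1195 against 216 CPM in PIGinH11, and it was detected in 81.6% and 79.4% of TLL1 nuclei, 31.9% and 29.5% of SLCO2A1-only nuclei and 2.47% and 1.72% of barcodes outside the gate. Thinned to 1000 UMIs, the shares with IL33 were 50% and 54.2% of TLL1 nuclei and 17.4% and 15.7% of SLCO2A1-only nuclei. IL1R1 was at 1400 against 168 CPM in WT and at 1033 against 207 CPM in PIGinH11. CYP7B1, which hydroxylates oxysterols, was at 373 against 18.7 CPM and at 263 against 5.61 CPM. The remaining 12 highest genes were DOCK11, ADGRG6, NTM, TENM2, PGM5, ZFPM2, MPP7, MEOX1, CNTN3 and SLC16A14. ADGRG6 was at 569 against 26.2 CPM in WT and at 494 against 28 CPM in PIGinH11. SELP was at 191 CPM in WT TLL1 nuclei against 80.4 CPM in SLCO2A1-only nuclei, whereas in PIGinH11 it was at 101 CPM in TLL1 nuclei and had no UMI in SLCO2A1-only nuclei. This difference between the pigs was not tested.

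KCNN2 showed the opposite pattern. This small-conductance calcium-activated potassium channel was at 21.2 CPM in WT TLL1 nuclei and 63.7 CPM in PIGinH11 TLL1 nuclei, compared with 1104 and 1553 CPM in SLCO2A1-only nuclei and 1692 and 928 CPM in comparison nuclei. It was detected in 6.12% and 11.8% of TLL1 nuclei and in 68.1% and 72.4% of SLCO2A1-only nuclei. Barcodes outside the gate held it in 19.7% and 9.01%, and after thinning to 1000 UMIs it was found in 0 of 48 and 3 of 96 TLL1 nuclei, compared with 53% and 56.9% of SLCO2A1-only nuclei. BTNL9, GPIHBP1 and RGCC, a cell-cycle regulator that is listed among the capillary markers, had 2 or fewer UMIs each in the TLL1 nuclei of WT. RGCC was at 8.49 against 331 CPM in WT and at 10.6 against 280 CPM in PIGinH11. GPIHBP1 was detected in 2.04% and 1.96% of TLL1 nuclei, 31.9% and 38.1% of SLCO2A1-only nuclei and 42.9% and 36.8% of comparison nuclei. Thinned to 1000 UMIs, it was found in 0 of 48 and 0 of 96 TLL1 nuclei, 8.7% and 14.7% of SLCO2A1-only nuclei and 22.2% and 32.4% of comparison nuclei, and at 500 UMIs the last 2 groups were at 10.3% and 7.79% in WT and at 11.4% and 15.3% in PIGinH11. COL13A1, MPPED2, PLCL1, UNC5B, FAP, ADGRF4, KCND2 and ITIH5 completed the 12 lowest. Among nuclei of 1000 to 5000 UMIs, COL13A1 in WT was at −1.52 in place of −4.14.

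**Figure D3:**
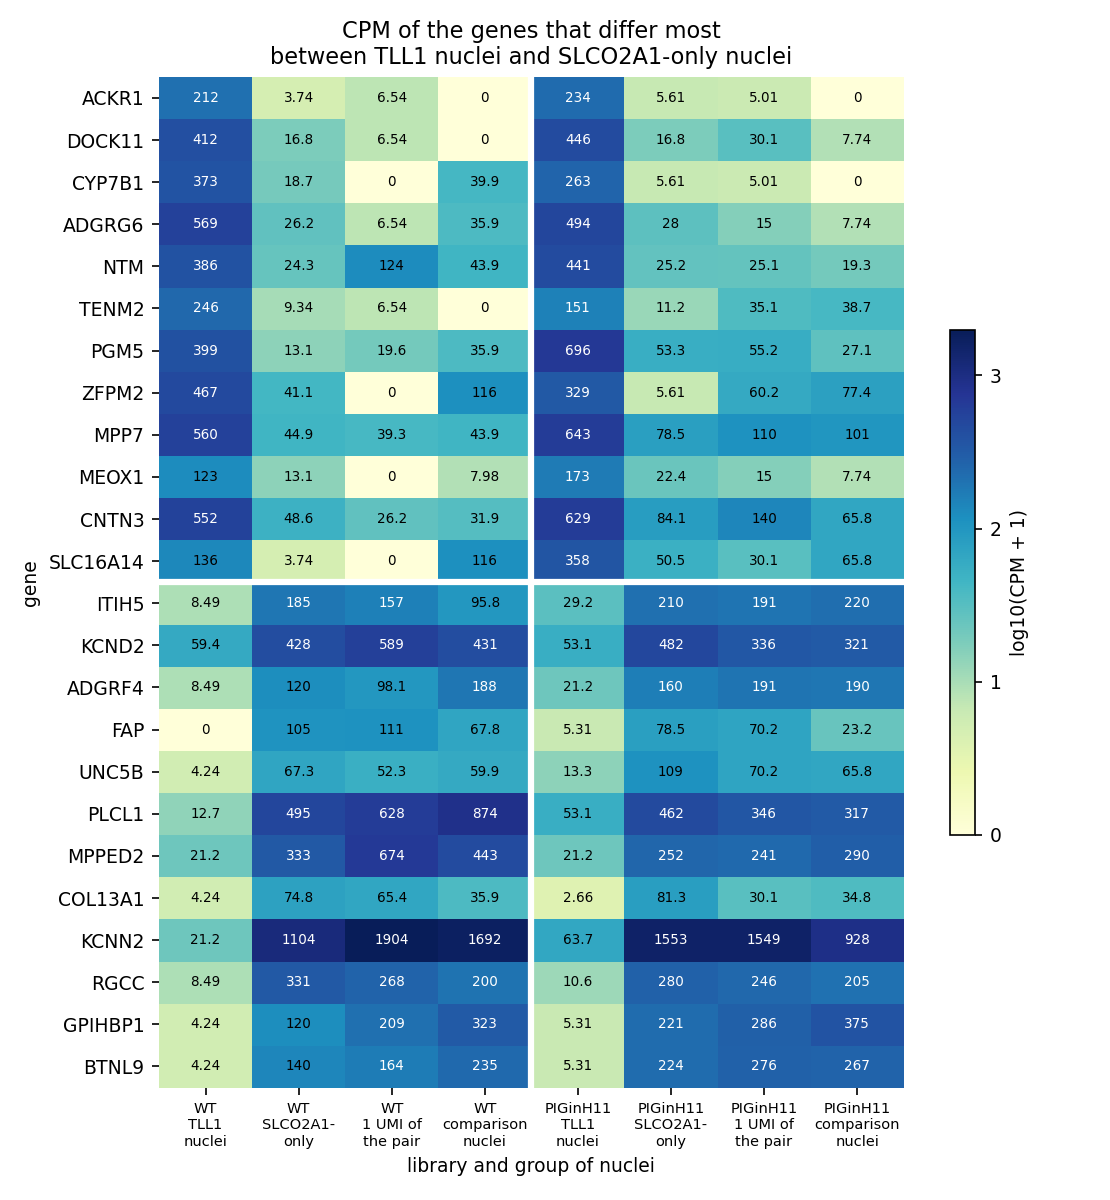
CPM (number and colour, log10(CPM + 1)) of the 12 highest and 12 lowest genes in TLL1 nuclei against SLCO2A1-only nuclei, 1 row per gene and 1 column per library and group of nuclei. ACKR1 is at 212 and 234 in the columns of TLL1 nuclei and at most 6.54 in the other columns, and BTNL9 is at 4.24 and 5.31 in TLL1 nuclei and at least 140 elsewhere.

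The lists of vessel-segment markers were also compared between these groups. They hold genes already named for this split, such as ACKR1, ADGRG6, RGCC, GPIHBP1, BTNL9 and UNC5B. Lists and split were both chosen with values of these data known, so the lists are no separate support for it. TLL1 nuclei had 2804 CPM of venous markers in WT and 2180 CPM in PIGinH11, against 576 and 527 CPM in SLCO2A1-only nuclei, and 5 of 7 measured genes were at least 2-fold higher in both libraries, where 3.82% of all genes were higher and 3.67% lower. Capillary markers were at 785 and 1309 CPM in TLL1 nuclei and at 2936 and 3341 CPM in SLCO2A1-only nuclei, with 4 of 9 lower in both (RGCC, GPIHBP1, BTNL9 and ADGRF5). FABP4, a fatty acid binding protein, was an exception, with log2 ratios of −2.05 in WT and 0.06 in PIGinH11. Of 12 arterial markers, 7 were lower in both: EFNB2, DLL4, SEMA3G, NEBL, CXCL12, UNC5B and NRP1. The chemokine CXCL12 had the log2 ratios −3.09 and −2.57, and the Notch ligand DLL4 −1.43 and −3.08. Of 22 measured endothelial markers outside the rule, 2 were at least 2-fold lower and 0 higher in both libraries. Above 0 in both were 7 and below 0 in both 13, with medians of −0.09 in WT and −0.33 in PIGinH11. PLVAP, the diaphragm protein of fenestrae, was at 429 against 1009 CPM in WT and at 404 against 832 CPM in PIGinH11. KDR is 1 of the 8 genes that chose the nuclei, so its values are a description only and no support for the split. It was at 123 against 402 CPM in WT and at 87.6 against 370 CPM in PIGinH11.

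**Figure D4:**
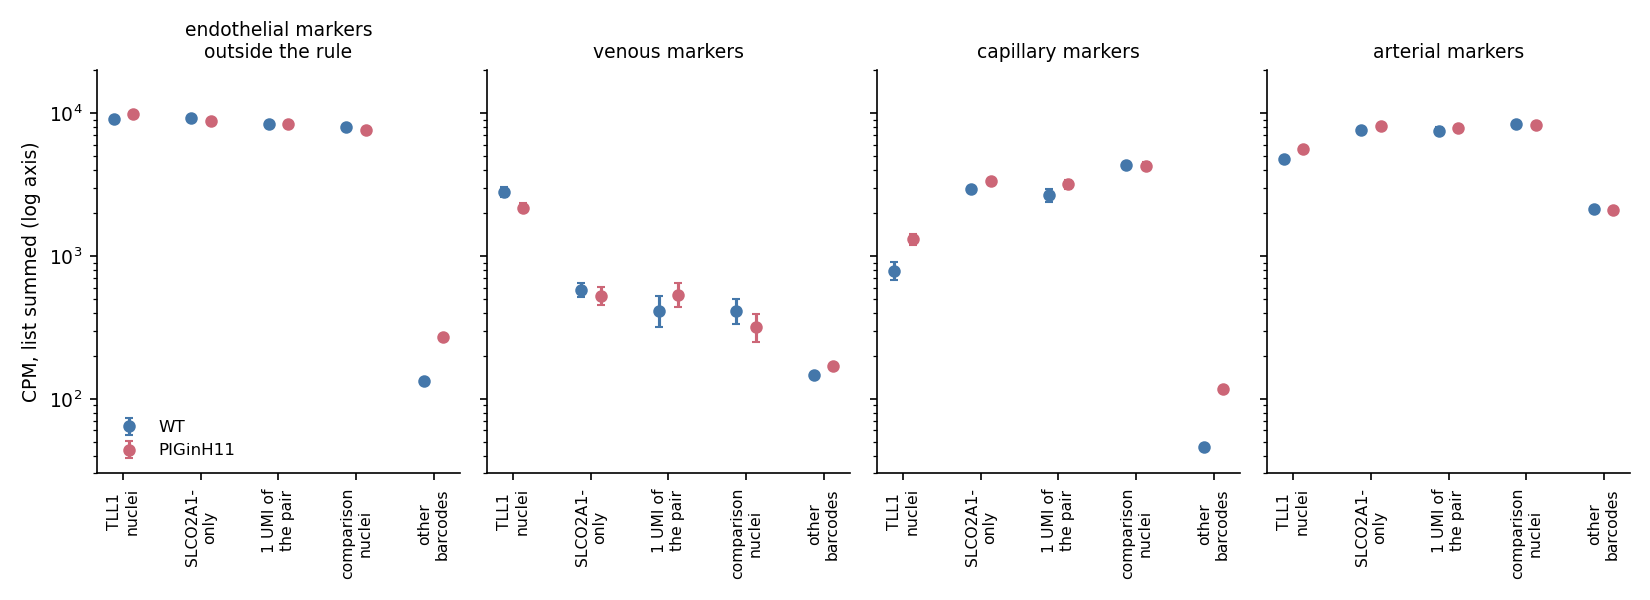
Summed CPM (log axis) of 4 marker lists in 5 groups of barcodes, with WT in blue and PIGinH11 in red and bars for the exact 95% Poisson interval, which covers counting error only. Venous markers are highest in TLL1 nuclei (2804 and 2180), where capillary markers are lowest among the gate nuclei (785 and 1309), while endothelial markers outside the rule are close in all 4 groups of gate nuclei.

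In the prostaglandin pathway, few genes besides SLCO2A1 were measured in these nuclei. Of 23 listed genes, 6 reached 30 UMIs, and PTGER2 was the only one at least 2-fold different in both libraries, where 1.57% of all genes were higher and 0.378% lower. PTGER2 was also lower in SLCO2A1-only nuclei than in comparison nuclei, with log2 ratios of −2.23 (−2.98 to −1.53) in WT and −1.29 (−2.39 to −0.25) in PIGinH11, and it had no UMI in the TLL1 nuclei of either library. PTGIS, the synthase of prostacyclin, was at 129 against 140 CPM in WT and at 77.8 against 34.8 CPM in PIGinH11. PLA2G4A, which frees arachidonic acid, was at 71 against 35.9 CPM in WT and at 81.7 against 61.9 CPM in PIGinH11. HPGD, the enzyme that inactivates prostaglandins after uptake, had no UMI in WT members and 15 in PIGinH11 members.

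Of 35 genes of tolloid proteases, BMP and TGF-beta signalling, 23 were measured, and 0 were 2-fold higher or lower in members of both libraries, where 1.57% and 0.378% of all genes were, with medians of −0.10 and −0.12. This count is near the share over all genes and is no result about the list. BMPR2, the type 2 BMP receptor, was at 961 against 886 CPM in WT and at 991 against 994 CPM in PIGinH11. The related protease BMP1 had 17 and 19 UMIs in members and TLL2 11 and 24, and the TLL1 substrate CHRD had 0 and 1. Between TLL1 and SLCO2A1-only nuclei, 2 of 21 measured genes were lower in both libraries, where 3.67% of all genes were. These were ACVRL1, the endothelial receptor of BMP9 (log2 −1.57 and −1.58), and ID3, a target gene of BMP signalling (−1.73 and −2.56). SMAD6, an inhibitory SMAD, had −1.63 and −0.88.

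Of 22 measured genes of the basement membrane, NID1, which links laminin and collagen IV, was the only one at least 2-fold different between members and comparison nuclei in both libraries (1.57% of all genes higher and 0.378% lower). It was at 67.2 against 188 CPM in WT and at 68.8 against 139 CPM in PIGinH11. In TLL1 against SLCO2A1-only nuclei, 4 of 17 measured genes of this list were lower and 1 was higher in both libraries, beside 3.67% and 3.82% of all genes. The collagen IV chains COL4A1 (log2 −1.82 and −1.76) and COL4A3 (−3.86 and −2.63) were lower, as were NID1 and the collagen receptor ITGA1. The laminin receptor ITGA6 was higher, with 1.17 and 1.03. Of 10 measured genes of the Notch list, 3 were lower in TLL1 nuclei of both libraries and 0 higher. These were NOTCH4, the endothelial Notch receptor, with −2.27 and −1.80, DLL4 and JAG2. Among 20 measured transcription factors, 1 was lower and 1 higher in both libraries, which is near the shares over all genes and no result about the list. ETS1 was lower (−1.42 and −1.48) and NR2F2 higher (1.86 and 4.31), and FLI1 was at 1655 against 1108 CPM in WT and at 2212 against 1104 CPM in PIGinH11. SCARB1, a lipoprotein receptor, was at 416 against 1704 CPM in WT and at 497 against 1567 CPM in PIGinH11.

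Transcripts of other cell types were present in members, and their part in the results was not tested. Digestive enzymes, found as free RNA in most droplets of a pancreas, made up 36774 CPM in WT members, 35367 CPM in comparison nuclei and 82051 CPM outside the gate, and 6433, 9798 and 33169 CPM in PIGinH11. The most abundant were PRSS2 in WT and CPA1 in PIGinH11 members. Acinar markers had 1729 and 2418 CPM in members against 12890 and 12109 CPM outside the gate, ductal markers 1278 and 1783 against 9735 and 6527 CPM, and endocrine markers 281 and 625 against 1580 and 3882 CPM. Mural markers were at 21.6 and 51.9 CPM and macrophage markers at 57.1 and 50.6 CPM in members. Stellate and fibroblast markers reached 724 and 1068 CPM, of which FBN1, fibrillin-1, held 547 of 571 UMIs in WT and 803 of 823 in PIGinH11, and COL1A1 was at 0 in PIGinH11 members. FBN1 itself was at 1218 CPM in WT TLL1 nuclei against 469 CPM in SLCO2A1-only nuclei, and at 1386 against 636 CPM in PIGinH11.

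At least 3 UMIs and 0.2% of UMIs of another cell type's list were found in 44 WT members (26%) and 111 PIGinH11 members (48.3%), compared with 35 (45.5%) and 72 (50%) comparison nuclei. Among members, these nuclei were more frequent with TLL1, at 34.7% of WT and 53.9% of PIGinH11 TLL1 nuclei against 23.3% and 40% of SLCO2A1-only nuclei. The lists include the stellate one, so FBN1 alone could place a nucleus here, and FBN1 was higher in TLL1 nuclei. How many nuclei were placed by FBN1 was not counted. Scored doublets were 6.12% of WT and 0% of PIGinH11 TLL1 nuclei, against 7.76% and 9.52% of SLCO2A1-only nuclei. Without the nuclei that carried markers of another cell type, 116 genes were at least 2-fold higher and 139 lower in TLL1 than in SLCO2A1-only nuclei of both libraries. With all nuclei, 156 and 150 of 4087 measured genes were. The number of genes measured without these nuclei is not given, so the counts cannot be compared as shares. Without these nuclei, the bounds for ACKR1 in members over comparison nuclei were 1.70 in WT and 1.92 in PIGinH11, and that for DOCK11 in WT was 2.37. Lymphatic markers had at least 10 UMIs in 4 members, all of them WT TLL1 nuclei, with 52, 48, 20 and 18 UMIs, and in 1 comparison nucleus of each library. This gave WT TLL1 nuclei 632 CPM of lymphatic markers against 63.7 CPM in PIGinH11 TLL1 nuclei.

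PIGinH11 members were then set against WT members, to ask where the transgenic pig differed from the WT pig in these nuclei. Members of the PIGinH11 pig had more IGFBP2, SH3RF2, NOVA1, ADAMTS5 and STC1, and less MGP, DPP6 and TMEM47, than those of the WT pig. Of 6978 genes with at least 30 UMIs over both, 376 (5.39%) were at least 2-fold higher and 322 (4.61%) lower in PIGinH11, with a median log2 ratio of 0.03. In comparison nuclei, 182 (5.15%) of 3535 genes were higher and 183 (5.18%) lower. Within TLL1 nuclei 6.17% of 4049 genes were higher and 5.66% lower, and within SLCO2A1-only nuclei 4.44% of 5020 genes were higher and 5.26% lower. These are values of 1 pig each, and the composition of the members differed, with a larger share of TLL1 nuclei in PIGinH11, so ratios are given in each group as well.

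IGFBP2, a binding protein of insulin-like growth factors, had 4 UMIs in 4 WT members and 78 UMIs in 36 PIGinH11 members (5.07 and 101 CPM). Its log2 ratio was 4.32 in members, 5.13 in TLL1 nuclei, 3.49 in SLCO2A1-only nuclei and 0.37 in comparison nuclei, where 6 and 8 UMIs were counted. SH3RF2 was at 36.8 CPM in WT and 279 CPM in PIGinH11 members, and most of it lay in TLL1 nuclei (106 and 505 CPM), where the log2 ratio was 2.25. In members its log2 ratio was 2.92, and it was 2.15 among nuclei of 1000 to 5000 UMIs and 2.28 with TLL1 and SLCO2A1-only nuclei weighted equally. ADAMTS5, a protease of proteoglycans, was at 27.9 and 151 CPM in members, with log2 ratios of 1.93 in TLL1 nuclei, 1.58 in SLCO2A1-only nuclei and −0.71 in comparison nuclei. By contrast, NOVA1, a splicing regulator, was higher by a like amount in all groups of the gate, with 2.48 in TLL1 nuclei, 2.53 in SLCO2A1-only nuclei and 2.42 in comparison nuclei. The secreted hormone STC1 (2.40 in members and 1.68 in comparison nuclei) and the transcription factor BHLHE40 (2.76 and 3.20) were also higher in comparison nuclei. DLG2, a synaptic scaffold protein, had log2 ratios of 3.46 in SLCO2A1-only nuclei and −0.09 in TLL1 nuclei, and in members it had 2.47 with all nuclei and 6.67 among nuclei of 1000 to 5000 UMIs. The differences between these ratios were not tested. DCC, SGPP2 and AGMO made up the 10 highest, and 24 of the 60 DCC UMIs lay in 1 PIGinH11 nucleus. Among nuclei of 1000 to 5000 UMIs, the log2 ratio was 0.65 in place of 2.94 for DCC and −0.35 in place of 2.71 for SGPP2. Without nuclei that carried markers of another cell type, SGPP2 was at 1.30.

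MGP, an inhibitor of calcification, had 46 UMIs in 19 WT members and 7 in 6 PIGinH11 members, with log2 ratios of −2.68 in members and −2.95 in comparison nuclei. DPP6 had 40 UMIs in 28 WT members against 6 UMIs, and TMEM47 48 UMIs in 31 WT members against 9. ITGA8, an integrin chain, had 38 UMIs in 16 WT members, 13 of them in 1 nucleus, against 4 in PIGinH11. HS6ST2, which sulfates heparan sulfate, had 54 and 12 UMIs, and MAB21L3 45 and 11. The log2 ratio of HS6ST2 was −2.14, and −4.02 among nuclei of 1000 to 5000 UMIs. The remaining genes among the 10 lowest were SYNPR, ANKRD55, RELN and RYR2, which rested in part or whole on the 4 WT nuclei with lymphatic markers. Of the 58 SYNPR UMIs of WT members, 0 were left without these nuclei, so that neither library exceeded 3 UMIs. RELN, itself among the lymphatic markers, had 48 UMIs in WT members and 1 without these nuclei, against 6 in PIGinH11, and its log2 ratio changed from −2.97 to 2.58. ANKRD55 changed from −3.06 to −1.59 and RYR2 from −2.34 to −1.74. Among nuclei of 1000 to 5000 UMIs, RYR2 was at −1.09.

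**Figure D5:**
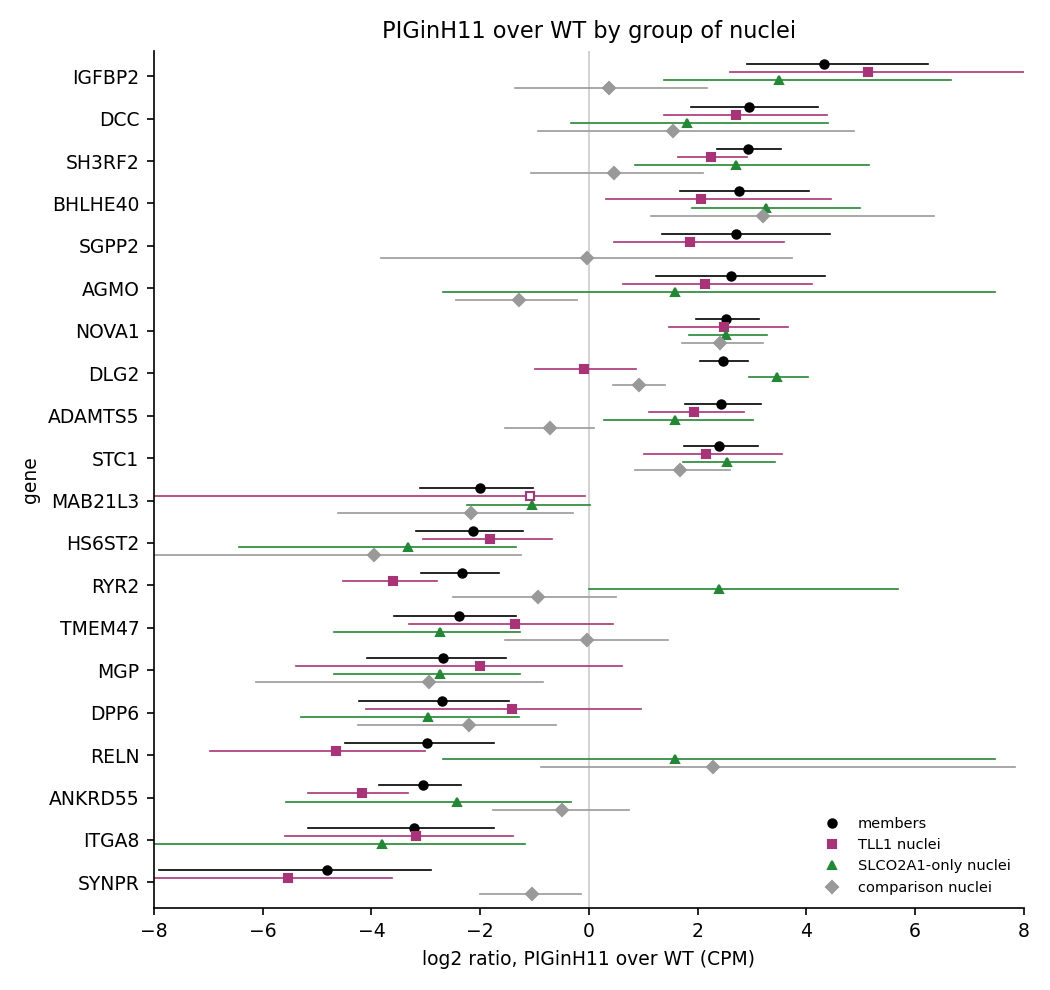
Log2 ratio of CPM, PIGinH11 over WT, for the 10 highest and 10 lowest named genes in members (black), TLL1 nuclei (purple), SLCO2A1-only nuclei (green) and comparison nuclei (grey), with exact 95% intervals for counting error only, cut at the plot's edge, and an open symbol for a bound. NOVA1 lies near 2.5 in all 4 groups, whereas IGFBP2 and ADAMTS5 are higher in PIGinH11 members and lie at 0.37 and −0.71 in comparison nuclei.

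Over all genes, 5.39% were at least 2-fold higher and 4.61% lower in PIGinH11 members. Among the lists, 0 of 22 endothelial markers outside the rule passed 2-fold between the pigs, which is near these shares, with a median of −0.19. Venous markers had a median of 0.19 over 7 genes, with SELP at −1.12 (−1.70 to −0.57). LAMA3, a laminin chain of basement membranes, was at 156 CPM in WT and 481 CPM in PIGinH11 members, and in TLL1 nuclei at 93.3 and 722 CPM, the latter in 7 and 48 nuclei. MEOX2, a homeobox factor of vessels, had no UMI in SLCO2A1-only nuclei of either pig and was at 72.1 CPM in WT and 196 CPM in PIGinH11 TLL1 nuclei. Its neighbour AGMO lies 14032 bases away on chromosome 9 and was at 17 and 74.3 CPM in TLL1 nuclei. Of 27 measured genes of tolloid proteases, BMP and TGF-beta signalling, 3 were at least 2-fold higher and 2 lower, with a median of −0.09. BMPR1A, a BMP receptor, had a log2 ratio of 1.47. Of 16 measured arterial markers, 0 were higher and 3 lower, with a median of −0.19, and CXCL12 was at 259 and 94.7 CPM (−1.45). Of 10 measured heat-shock and immediate-early genes, HSP70.2 (307 and 32 UMIs), HSPA8 (61 and 17) and DNAJB1 (29 and 6) were at least 2-fold lower and none higher. HSP70.2 was at 622 CPM in WT and 10.1 CPM in PIGinH11 barcodes outside the gate. Of 11 digestive enzymes, 8 were lower, with a median of −1.96, and PRSS2 had −4.05.

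INSR, the insulin receptor, was at 252 CPM in WT and 379 CPM in PIGinH11 members, with a log2 ratio of 0.59 (0.32 to 0.85), and of 1.08 (0.68 to 1.49) in comparison nuclei. The pig genes that correspond to the transgenes, GIPR, IAPP and PNPLA3, had 1 UMI in WT members and 3 in PIGinH11 members. GHRL, the ghrelin gene, was detected in 25.4% of WT members (19.1 to 32.7) and 11.3% of PIGinH11 members (7.52 to 16.1), compared with 11.7% and 8.33% of comparison nuclei and 7.19% and 4.56% of barcodes outside the gate. Thinned to 1000 UMIs, it was detected in 5.99% and 4.69% of members, 4.17% and 4.9% of comparison nuclei and 1.89% and 2.74% of the barcodes outside the gate. PIGinH11 members were not above the comparison nuclei at that depth. At 500 UMIs, members were at 2.37% in WT and 3.48% in PIGinH11, and comparison nuclei at 2.6% and 2.78%. The order of members and comparison nuclei thus depended on depth in both libraries.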

How the data were processed

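Both libraries of the series, from 1 WT and 1 PIGinH11 pancreas, were used. The authors deposited raw UMI counts per gene and barcode, made with Cell Ranger on Sscrofa11.1 with barcodes called by EmptyDrops, before doublet removal and filters. Version 3.1.0 of Cell Ranger is named by the methods and the submitters' processing notes, and version 5.0.0 by the file headers. Of 31908 genes, 16498 carry a symbol in the files, 841 were named from the reference gene tables and 14569 have none. Whether a count can be split between near-identical copies or antisense genes was not tested.

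The members, the gene lists and the comparisons were chosen with earlier results of these data known. The limits on genes and UMIs were 270 to 3700 and 13000, where the methods print 1300 for the latter. For CPM, the UMIs of a gene over a group of nuclei in 1 library were set against the total UMIs of the group. WT members held 788683 UMIs, PIGinH11 members 770764, and comparison nuclei 250604 and 258515. Log2 ratios of CPM were taken for genes with at least 30 UMIs over both groups, in each library where 2 groups of nuclei were compared, and at least 2-fold (log2 of at least 1) was counted. Genes named for PIGinH11 over WT members are also given in the other groups of nuclei without this minimum. An example is IGFBP2 in comparison nuclei, with fewer than 30 UMIs. A sum of 0 was set to 3 counts to give a bound, and medians of lists include genes at their bound. Exact 95% intervals were computed by the methods of Clopper and Pearson (shares), Poisson (sums) and the conditional binomial (ratios), and no test was made, since nuclei are not replicates. Shares were repeated after thinning nuclei to 1000 or 500 UMIs, with shallower nuclei left out (seed 0).

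The named genes are the 12 highest and 12 lowest log2 ratios with the same sign in both libraries, ranked by the value nearer 0, outside the 10 genes of the rule. The same ranking was applied to TLL1 against SLCO2A1-only nuclei, a split added after seeing the data. For PIGinH11 over WT they are the 10 highest and 10 lowest among genes with at least 30 UMIs over the members of both libraries. These genes also had to be at least 2 times more abundant in members than outside the gate in the library with the higher CPM. Each gene thus passed this filter through the library where it was high, and the other library was not filtered. Members of 31 lists, with 393 genes of which 373 were found, are given as counts with examples. MEOX2 and AGMO as neighbours, and LAMA3 in TLL1 nuclei, were chosen after their values were seen.

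Scrublet scores (scanpy v1.11.5) marked the highest 0.8% for each 1000 barcodes as doublets, which were kept except in an alternative. Alternatives were limits on mitochondrial UMIs, doublets, other cell types, UMIs, the pair and the panel, thinning, median-of-ratios scaling, a denominator without enzyme, ribosomal and mitochondrial genes, means over nuclei, and other minimum UMIs. Added after seeing the data were a limit on lymphatic markers, at least 5 TLL1 UMIs and equal weights of TLL1 and SLCO2A1-only nuclei. The steps were tested on simulated data. Python v3.11.15, numpy v2.4.6, scipy v1.17.1 and matplotlib v3.10.9 were used.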

Additional observations from a re-analysis of the deposited data

Results flagged for a closer look

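Outside the limits on genes and UMIs, which the comparisons did not use, 21 WT barcodes and 9 PIGinH11 barcodes met the conditions on the endothelial genes and on SLCO2A1 and TLL1. LAMA3 in members over comparison nuclei had a log2 ratio of −0.67 in WT and 1.18 in PIGinH11, and MEOX2 of −2.09 in WT and 1.52 in PIGinH11. For MEOX2, 23 UMIs in 7 WT comparison nuclei stood against 9 UMIs in 8 PIGinH11 comparison nuclei. Genes of other cell types also had opposite signs in the libraries, with PRSS2 at 0.10 in WT and −0.77 in PIGinH11, CEL at 0.21 and −0.58, and SLC4A4 at −0.66 and 0.39. For each of these genes both intervals leave out 0, but with 1 pig per group the difference between the libraries was not tested.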

How the results depend on the processing

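The size of the population depended on depth, on the limit on the pair and on nuclei with markers of another cell type. Members made up 21.4% of the WT gate and 26.3% of the PIGinH11 gate with the UMI limit of 1300 (0.15% and 0.425% of barcodes), 73.4% and 69% with at least 1 UMI of the pair (1.61% and 2.15%), 46.2% and 37.8% with at least 3 (1.02% and 1.18%), and 30.8% and 34.6% with the gate on nuclei thinned to 1000 UMIs (0.648% of WT barcodes). At least 5 panel UMIs gave 54.5% of the PIGinH11 gate. Leaving out nuclei with markers of another cell type gave 64.8% of the WT gate, 0.948% of WT and 0.798% of PIGinH11 barcodes, and 243 genes higher in PIGinH11 than in WT members. The share of TLL1 nuclei in PIGinH11 members was 34.3% with the UMI limit of 1300, 31.8% with at least 1 and 55.1% with at least 3 UMIs of the pair. TLL1 was found in 17% of WT and 28.8% of PIGinH11 gate nuclei with SLCO2A1 at 500 UMIs.

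With a minimum of 10 UMIs, 890 genes in WT, 864 in PIGinH11 and 205 in both were at least 2-fold higher in members than in comparison nuclei and 549, 540 and 84 lower, 861, 785 and 318 were higher and 749, 727 and 263 lower in TLL1 than in SLCO2A1-only nuclei, and 1121 were higher and 777 lower in PIGinH11 members. With a minimum of 100 UMIs these were 54, 83 and 32 higher and 25, 32 and 6 lower, 83, 74 and 53 higher and 110, 119 and 83 lower, and 86 and 93, where fewer genes are tested. With nuclei of 1000 to 5000 UMIs, 151, 141 and 37 were higher in members, 78 lower in PIGinH11 members, and 187, 170 and 89 higher in TLL1 nuclei. With comparison nuclei of 0 or 1 UMI of the pair, 199 genes were higher in PIGinH11 members. In nuclei of 1000 to 5000 UMIs, SGPP2 in PIGinH11 over WT members reversed to −0.35, and without lymphatic nuclei RELN reversed to 2.58, where 1 UMI was left in WT. The cause of the other changes was not tested. Of 232 values of shares and gene counts, 171 stayed within the limits set, and of 1412 values of single named genes 1344 did, while 66 moved and 2 reversed. No paired analysis was possible because each group has 1 library.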
